A study of Saccharomyces cerevisiae with 4 samples.

Results

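The last stretch of each yeast chromosome, just inside the telomere repeats, is the subtelomere. The 186 genes described here are the nuclear protein-coding genes of the deposited gene table, with a listed span under 5000 bp, that start or end within 15000 bp of the outermost listed gene of their chromosome end, out of 6209 listed genes, of which 5901 are nuclear and protein-coding. The rule named 22 genes to be left out, and 18 of those met its other conditions. RNA was taken from the haploid laboratory strain BY4741 (MATa his3 leu2 met15 ura3), grown in rich YPD medium and kept for 3 h with 3 µg/mL thiolutin or without it. The record's labels give exponential growth and the study's methods overnight cultures for the RNA, so the growth phase is not settled, which bears on the untreated level of glucose-repressed genes. Thiolutin is a sulfur-rich microbial antibiotic that slows RNA synthesis and, once reduced, binds zinc. Each condition had 2 poly(A)-selected libraries with replicate numbers 1 and 2, and all values below are read counts per gene scaled for library size (normalized counts). Libraries held 30205335 and 29962621 counted reads in untreated cells and 17038991 and 21440741 in treated cells. A single coefficient of variation, fitted over all tested genes and without counting error, was 16.7% for the untreated pair and 2.31% for the treated pair.

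Subtelomeres are gene-poor and repetitive. Genes there tend to be kept at low levels by silent chromatin, in which the Sir2 histone deacetylase and the histone-binding proteins Sir3 and Sir4 spread inward from telomeres, and by other repressors that act over longer distances. Many are members of families for the use of unusual nutrients, for the cell wall or for metal and drug transport, copied from end to end by recombination. Some ends also carry a Y' element, a long repeat that encodes a helicase. In the R64 annotation 17 of the 32 ends had a Y' element and 15 did not, and every end held between 3 and 10 of the 186 genes.

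The repeats decide how well these genes can be counted. In 94 of the 186 genes (50.5%), fewer than 50% of the 50-base words of the gene occurred only once in the genome, against 1.79% of the nuclear genes outside the rule, and 73 genes were at least 90% unique. The sources used here do not say how reads that match several places were counted, so values of near-identical copies are uncertain. Copies that nevertheless had different values are shown first, since only the bases that differ can tell their reads apart. For the glutathione exchangers GEX1 (chrIII:7787-7886, minus strand) and GEX2 (chrXI:661882-661981, plus strand), 100 coding bases are given with the differing bases in capitals. The whole 1848-base genes differed at 19 positions.
GEX1: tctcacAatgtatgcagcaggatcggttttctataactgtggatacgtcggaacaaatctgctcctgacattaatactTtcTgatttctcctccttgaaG
GEX2: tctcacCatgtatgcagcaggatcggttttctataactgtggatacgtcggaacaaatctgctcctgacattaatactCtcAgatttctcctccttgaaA

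The same kind of window is given for the 4 copies of the THI5 family, which makes the pyrimidine part of thiamine, with capitals at bases that vary among the copies. They lie at chrVI:13378-13477 (THI5, plus strand), chrXIV:15281-15380 (THI12, plus strand), chrIV:16653-16752 (THI13, plus strand) and chrX:729048-729147 (THI11, minus strand). THI5 and THI12 differed at 7 of 1023 bases and THI13 and THI11 at 17.
THI5: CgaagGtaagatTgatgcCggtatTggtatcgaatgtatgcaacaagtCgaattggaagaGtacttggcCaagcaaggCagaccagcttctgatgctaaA
THI12: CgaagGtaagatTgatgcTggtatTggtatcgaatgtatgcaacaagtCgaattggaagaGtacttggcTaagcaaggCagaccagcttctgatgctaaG
THI13: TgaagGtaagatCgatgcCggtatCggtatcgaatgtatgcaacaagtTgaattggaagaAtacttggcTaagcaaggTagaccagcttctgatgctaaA
THI11: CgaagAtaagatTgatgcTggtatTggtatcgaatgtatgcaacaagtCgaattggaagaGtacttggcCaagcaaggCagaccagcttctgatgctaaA

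As a whole, the subtelomeric genes were not raised as a group by thiolutin. Some rose steeply and about as many fell, relative to a scale fitted so that most genes change little. An absolute direction cannot be read from these counts. Of the 159 that had enough reads to be tested, 45 rose and 39 fell at an adjusted p under 0.05 (edgeR quasi-likelihood test, Benjamini-Hochberg adjustment over 5937 genes), and 75 did not pass. These are 28.3% higher and 24.5% lower, beside 31.2% and 32.4% of all tested genes, and 52.8% changed, beside 63.6% of all tested genes. At a mean of at least 100 normalized counts 67.4% of the tested subtelomeric genes changed, beside 65.0% of nuclear genes outside the rule. Under that mean the shares were 34.3% and 37.9%. By at least 1 on the log2 scale, 30 were higher and 19 lower (18.9% and 11.9%, beside 15.7% and 10.3% of all genes). Of these, 4 higher genes had enough reads for the test only in the treated libraries, and 1 lower gene only in the untreated libraries. Such genes, named below, could pass in that direction only, so the larger share of increases is no sign of a direction. The median log2 fold change was -0.24 for the subtelomeric genes and -0.04 for all genes. All 84 called genes had both treated libraries on the same side of both untreated libraries. Called or not, the libraries of the 2 groups did not overlap in 60 genes that were higher and 69 that were lower, out of the 159 (beside 40.8% and 43.9% of all genes). Without 1 library the spread comes from the pair of the other group alone. Without thiolutin replicate 1 the calls numbered 31 higher and 17 lower, and without thiolutin replicate 2 they numbered 30 and 15. Without untreated replicate 1 they were 53 and 55, with a median of 0.02, and without untreated replicate 2 they were 54 and 69. On a plain scale of total counts, which lowers the median of all genes to -0.63 and shifts the members by -0.59, the split was 26 higher and 86 lower.

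The calls were spread over the whole interval. Between 0 and 5 kb from the outermost gene 14 of 55 tested genes rose and 15 fell, between 5 and 10 kb 11 of 50 rose and 10 fell, and between 10 and 15 kb 20 of 54 rose and 14 fell. The medians of the log2 fold change were -0.26, -0.22 and -0.20 in this order, with 0.01 for other nuclear genes 15 to 30 kb from the end and -0.08 for those 30 to 60 kb away. The genes nearest the limit on either side lay at 14980 and 15169 bp. Levels before treatment differed more: the median untreated level was 128.9 normalized counts per kilobase in the subtelomeric genes and 1051 in the nuclear genes outside the rule. In the subtelomeric genes with at least 90% unique sequence this median was 470.5, and in those under 50% unique it was 56.1. How the counting of reads with several matches bears on this gap was not tested. The 71 tested genes with at least 90% unique sequence gave 22 higher and 20 lower, with a median of -0.24.

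**Figure D1:**
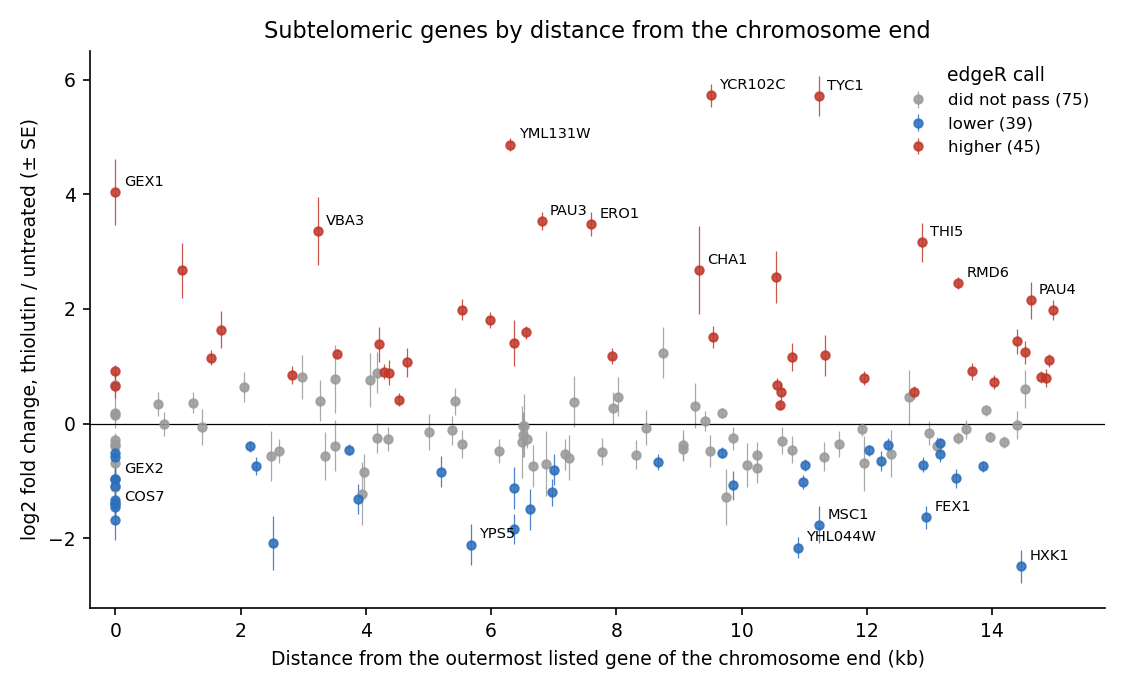
Log2 fold change (thiolutin over untreated, ± SE) of the 159 tested genes against the distance in kb from the outermost listed gene of their chromosome end; red genes were called higher, blue lower, and grey did not pass. Both colours run from 0 to 15 kb, and the changes above 4 on the log2 scale are YCR102C, TYC1, YML131W and GEX1.

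Among the largest increases were YCR102C, YML131W and ERO1, which encode oxidoreductases or their relatives and were on none of the lists. YCR102C (chrIII:304361-305467), a quinone-reductase-like gene, had a normalized count of 190.3 and 265 without and of 11586 and 12495 with thiolutin. Its log2 fold change was 5.72 ± 0.21 (SE, 2 libraries per group, adjusted p = 9.39e-05, edgeR). YML131W (chrXIII:10198-11295), a medium-chain reductase, went from 1161 and 1155 to 33062 and 34631, a change of 4.87 ± 0.11 (adjusted p = 6.4e-05, edgeR). The 2 libraries of each group were close together in both genes and far from the other group.

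ERO1, which passes electrons from protein disulfide isomerase to oxygen so that secreted proteins can form disulfide bonds, lies on the other strand and ends 187 bp from the end of YML131W. Its normalized counts were 3170.1 and 4665 untreated and 43446 and 44106 treated, with no overlap, and rose by 3.48 ± 0.22 on the log2 scale (adjusted p = 0.000296, edgeR). AIF1, a mitochondrial flavoprotein related to apoptosis-inducing factor, rose from 1112 and 1069 to 2509 and 2581 (1.22 ± 0.08, adjusted p = 0.000371). BDS1, an alkylsulfatase, rose least among the called genes of its list, from 779.7 and 671 to 975 and 962. The change was 0.42 ± 0.12 (adjusted p = 0.0268, edgeR), a call lost without either treated library. On the scale of total counts the change was -0.17. The list of dehydrogenases and oxidoreductases held 4 genes, of which AIF1, BDS1 and CHA1 rose and FDH2, annotated as a pseudogene, did not pass, and 1 was called when either treated library was left out.

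CHA1, the catabolic serine and threonine deaminase, showed the widest spread of these. Its untreated libraries held 598 and 3249.9 normalized counts and its treated libraries 12104 and 12507. The groups did not overlap, but the untreated libraries themselves were further apart than in the other genes named. The increase was 2.68 ± 0.77 (adjusted p = 0.0303, edgeR), and without either treated library it no longer passed (0.0592 and 0.0621). It was 1.93 without untreated replicate 1 and 4.37 without untreated replicate 2.

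Several further increases were in transporters. PCA1, a P-type ATPase, had 468 and 648 normalized counts untreated and 2266 and 2126 treated, which is 1.98 ± 0.17 on the log2 scale (adjusted p = 0.000701, edgeR). NFT1 and YKR104W, which are 99 bp apart on one strand of chromosome XI and form a single ABC transporter gene in some other yeast strains, moved together. NFT1 rose from 342 and 366 to 1009.6 and 1121 (1.59 ± 0.11) and YKR104W from 105 and 85.5 to 400.4 and 356 (1.99 ± 0.18). VBA5, a relative of the vacuolar carriers of basic amino acids, rose from 198 and 192 to 376 and 327 (0.85 ± 0.15, adjusted p = 0.00594), but did not pass without thiolutin replicate 1 (0.0784) or on the scale of total counts (0.26, adjusted p = 0.164). SGE1, a multidrug exporter of the plasma membrane, fell from 1413 and 1561 to 1065 and 1092 (-0.46 ± 0.10, adjusted p = 0.0104), a call lost without either treated library (0.129 and 0.113). The transport list counted 3 of 8 higher and 2 lower.

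TYC1 and RMD6 complete the largest increases apart from the families. TYC1 (chrII:800123-800242), a very short gene that lies 280 bp from MAL33, had 4 and 6 reads untreated but 88 and 146 treated. In normalized counts these were 2.85 and 4.28 against 167 and 219, and the ratio was 55.03 (95% exact interval 29.4 to 116, counting error only). It met the limit on low counts only in the treated libraries, so its test is not used here. RMD6, named from a screen for meiotic nuclear division, rose from 290.1 and 322 to 1649 and 1691 (2.45 ± 0.11, adjusted p = 0.000136). The sources used here do not say whether reads were counted by strand, so part of the counts of a short gene may belong to a transcript of its neighbours; this was not tested.

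**Figure D2:**
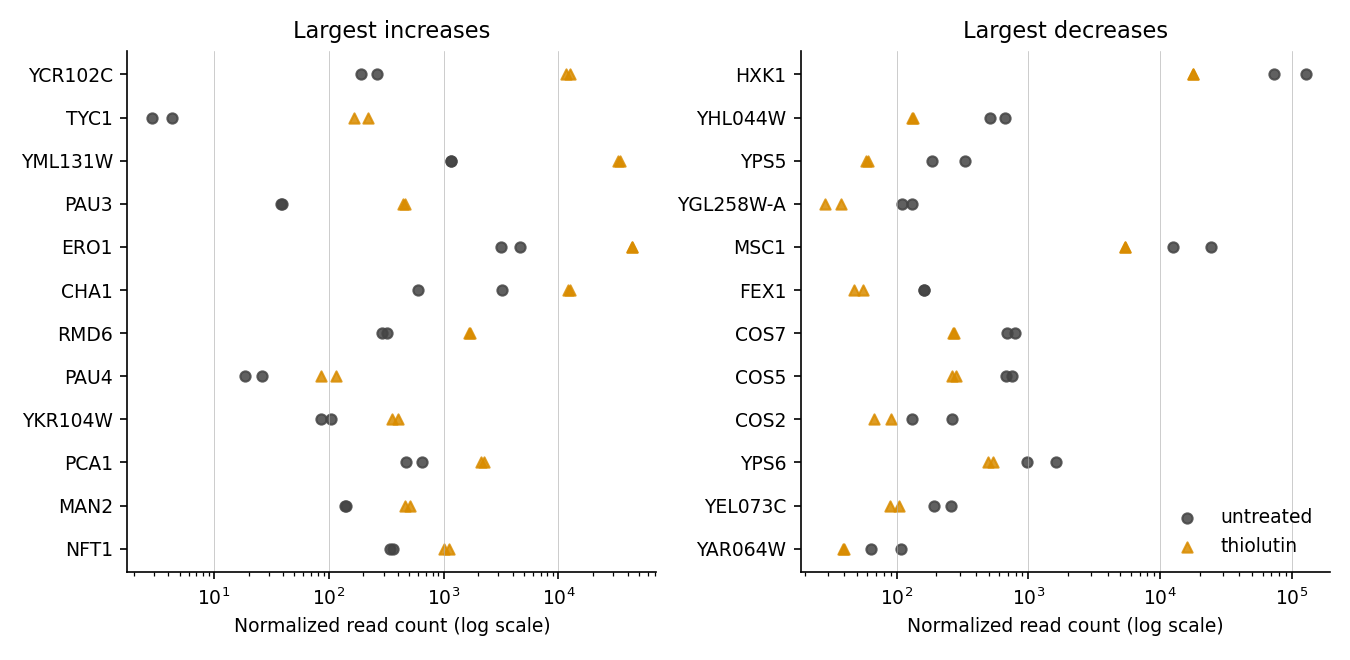
Normalized read counts (log axis) of the 12 genes that rose most and the 12 that fell most, among called genes with a mean of at least 50, with circles for the 2 untreated and triangles for the 2 thiolutin libraries. The genes were picked among those whose groups did not overlap, so the separation in each row follows from that choice. CHA1 has the widest gap between untreated libraries, 598 and 3249.9.

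The largest decreases were led by hexokinase 1. HXK1 (chrVI:253592-255049), which phosphorylates glucose and fructose and is repressed by glucose, had a normalized count of 127431 and 73079 untreated and of 17892 and 17833 treated, a fall of 2.49 ± 0.28 on the log2 scale (adjusted p = 0.00142, edgeR). It carried much of the reads of the whole set. The 186 genes took 1.05% and 0.737% of all counted reads in untreated cells and 0.586% and 0.601% in treated cells, and without HXK1 these shares were 0.462%, 0.395%, 0.531% and 0.545%. MSC1, named from a screen for sister chromatid recombination in meiosis, fell from 24182 and 12465 to 5388 in both treated libraries (-1.77 ± 0.32, adjusted p = 0.00661). In both genes untreated replicate 1 was the highest library.

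The yapsins and a flocculin were lower. YPS5 and YPS6 belong to the yapsins, aspartyl proteases anchored at the cell surface. YPS5 had 331 and 185 normalized counts untreated and 60.7 and 58.5 treated (-2.11 ± 0.36, adjusted p = 0.00532), and YPS6 had 1606 and 973 against 497 and 540.1 (-1.31 ± 0.26, adjusted p = 0.00877). The short uncharacterized gene YGL258W-A, 194 bp from YPS5, had 130.4 and 109 against 28.5 and 37.5 (-1.84 ± 0.26). FLO10, a flocculin that lets cells stick together, went from 356 and 302 to 175 and 165 (-0.96 ± 0.16, adjusted p = 0.0054, and 0.0609 without thiolutin replicate 2). Of the 4 genes on the list of flocculins and cell wall proteins 3 fell, and the remaining gene, PAU24, is also a PAU gene and did not pass. The PAU genes, also cell wall proteins, are described apart.

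Other large decreases were in genes of little known function and in a fluoride exporter. YHL044W, uncharacterized, had 668 and 513 normalized counts untreated and 133 and 131 treated (-2.16 ± 0.19, adjusted p = 0.000674, edgeR). YEL073C fell from 257 and 191 to 89.2 and 105 (-1.20 ± 0.23) and YAR064W from 108 and 63.4 to 39.9 and 39.0 (-1.12 ± 0.36, adjusted p = 0.0434). Both are uncharacterized, and their calls were lost without thiolutin replicate 1 (adjusted p = 0.065 and 0.142). YAR064W was lost without thiolutin replicate 2 as well, at 0.16. FEX1, which exports fluoride, fell from 161 in both untreated libraries to 47.4 and 55.5 (-1.64 ± 0.21, adjusted p = 0.00197).

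The COS genes, whose products carry other membrane proteins into the vacuole for destruction, were the family with the most decreases. Of 11 members, all tested, 8 fell, COS4 rose, and COS3 and COS10 did not pass, with a median log2 fold change of -0.57. These are 72.7% lower and 9.09% higher, beside 32.4% and 31.2% of all tested genes. The decreases numbered 3 without thiolutin replicate 1 and 4 without thiolutin replicate 2, and COS4 was not called without the former. COS7 and COS5, the outermost genes of chromosome IV left and chromosome X right, changed alike. COS7 had 789 and 693 normalized counts untreated and 273 and 266 treated (-1.46 ± 0.13, adjusted p = 0.000697), and COS5 had 755 and 681 against 283 and 261 (-1.40 ± 0.13, adjusted p = 0.000744). The coding sequences of this pair differed at 51 of 1152 bases, many of them in the window below (chrX:743495-743594, minus strand, and chrIV:2207-2306, plus strand, differing bases in capitals). Of their 50-base words 17.04% in COS5 and 33.4% in COS7 occurred once in the genome, so most of these words are shared with other places.
COS5: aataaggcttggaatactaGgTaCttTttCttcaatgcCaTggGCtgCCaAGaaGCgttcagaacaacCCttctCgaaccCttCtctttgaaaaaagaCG
COS7: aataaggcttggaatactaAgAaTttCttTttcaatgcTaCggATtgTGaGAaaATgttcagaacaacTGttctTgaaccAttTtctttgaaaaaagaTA

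The most abundant COS genes fell less. COS6 had 3666 and 3423 normalized counts untreated and 2647 and 2732 treated (-0.40 ± 0.09, adjusted p = 0.0139), and COS8 had 1448 and 1309.7 against 985 and 1028 (-0.45 ± 0.10, adjusted p = 0.0123). COS9, the member with the most unique sequence after COS10 and COS12, fell from 845 and 938 to 412 and 464 (-1.02 ± 0.12, adjusted p = 0.00171). The calls of COS6 and COS8 were lost without thiolutin replicate 1 (0.207 and 0.146) and without thiolutin replicate 2 (0.166 and 0.114). COS2 and COS3 are identical in sequence, so their separate values (-1.33 ± 0.41, called lower, and -0.57 ± 0.42, not called) rest on how shared reads were placed. The call of COS2 was lost without either treated library (0.0769 and 0.156), and COS3 turned to 0.13 without untreated replicate 1. On the scale of total counts 9 of the 11 COS genes were lower and none higher, and COS4 no longer passed.

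The PAU genes, which encode small cell wall mannoproteins known for their induction without oxygen, had increases but no decreases among their calls. Of 13 members 9 were tested, and 4 of these rose, 5 did not pass and none fell. That is 44.4% higher, beside 31.2% of all tested genes. Every tested member had a positive log2 fold change, from 0.32 to 3.53, with a median of 0.78. On the scale of total counts 3 rose, the median was 0.19, and PAU9 (-0.20) and PAU13 (-0.27) were below 0. Leaving out 1 library gave 3 to 7 increases and medians of 0.69 to 1.38, and PAU11 was below 0 without thiolutin replicate 1 (-0.08) and PAU13 without untreated replicate 2 (-0.07). PAU3 rose most, from 39.2 and 38.5 normalized counts to 438 and 464 (3.53 ± 0.16, adjusted p = 0.000157, edgeR). PAU4 had 18.5 and 26.4 against 116 and 85.5 (2.15 ± 0.32, adjusted p = 0.00329). PAU24 had 40.6 and 38.5 against 70.2 and 54.0, which did not overlap but did not pass (0.64 ± 0.27, adjusted p = 0.087). Only 0% to 61.0% of the sequence of a PAU gene was unique, and PAU6 and PAU18 were identical, so the values of the copies are not independent.

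**Figure D3:**
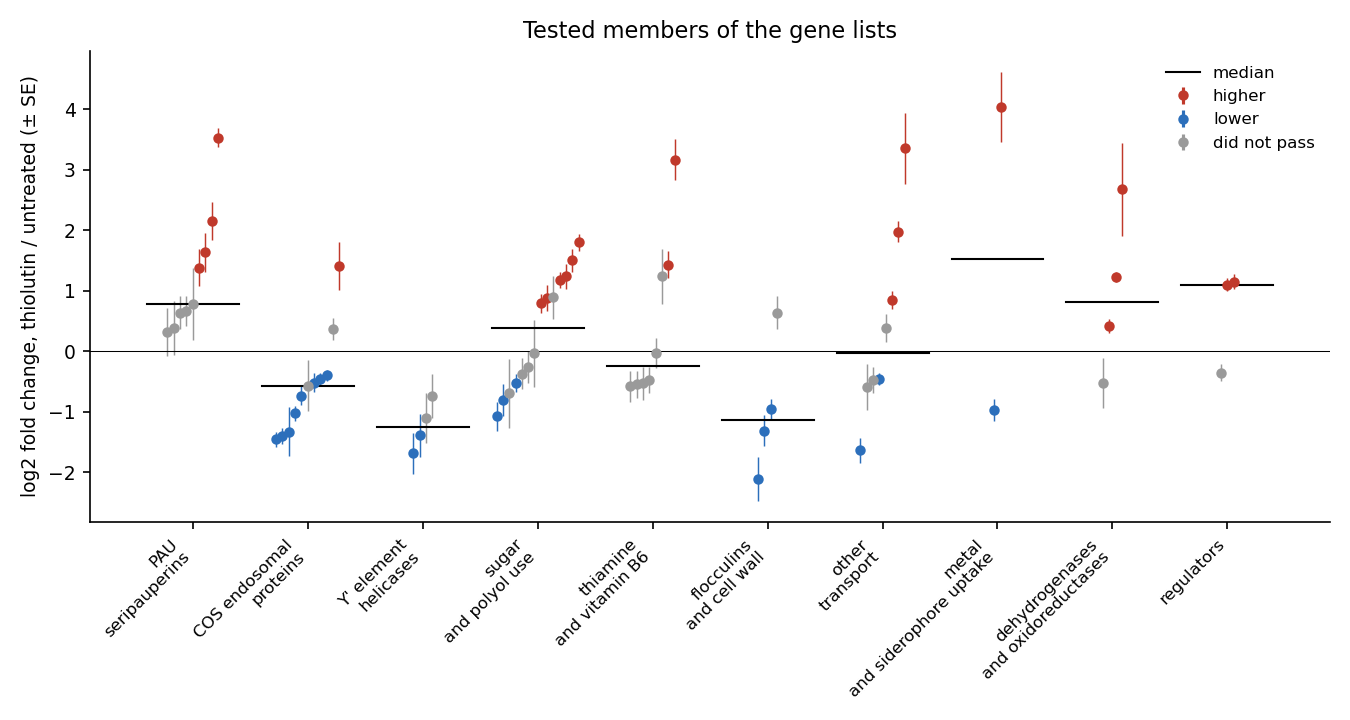
Log2 fold change (thiolutin over untreated, ± SE) of each tested gene, grouped by gene list, with black bars for the median of a list; red genes were called higher, blue lower and grey did not pass. The 9 PAU genes all lie above 0 and 4 of them are red, while 8 of the 11 COS genes are blue.

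Genes for sugars and polyols changed in both directions. Of 17 on the list 14 were tested, with 6 higher and 3 lower (42.9% and 21.4%, beside 31.2% and 32.4% of all tested genes). The median was 0.38, and -0.21 on the scale of total counts. The median was 0.76 without untreated replicate 1 and 0.17 without untreated replicate 2, and the decreases numbered 0 without thiolutin replicate 1 and 1 without thiolutin replicate 2. At the MAL3 locus of chromosome II, MAL33, the activator of the maltose genes, rose from 783 and 541 normalized counts to 1852 and 1904 (1.50 ± 0.19, adjusted p = 0.00199). MAL31, the maltose permease next to it, fell from 3369 and 1947 to 1492 and 1553 (-0.80 ± 0.27, adjusted p = 0.046), a call that was lost with DESeq2's size factors (0.0507) and without either treated library (0.147 and 0.129). MAL11, the permease of the MAL1 locus on chromosome VII, had 1586 and 946 against 996 and 959 and did not pass (-0.37 ± 0.25, adjusted p = 0.248). MAN2, a mannitol dehydrogenase on chromosome XIV, rose from 138 and 141 to 463 and 509 (1.80 ± 0.14, adjusted p = 0.000497).

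Among the Y' element helicases more fell than rose, and most did not pass. Of the 12 genes annotated so, 33.3% fell and 8.33% rose, beside 32.4% and 31.2% of all tested genes. YRF1-6 had 47.8 and 44.2 normalized counts untreated and 11.4 and 16.5 treated (-1.69 ± 0.34, adjusted p = 0.00955), and YRF1-3 had 44.2 and 35.6 against 17.1 and 13.5 (-1.39 ± 0.35, adjusted p = 0.0204). YRF1-4 had 42.0 and 49.2 against 19.0 and 34.5 and did not pass (-0.74 ± 0.36, adjusted p = 0.132). Of the 4 YRF1 genes 2 fell, and of all 12 genes annotated as Y' element helicases 4 fell and 1, YML133C, rose (0.65 ± 0.21, a call lost with DESeq2, with the replicate block, on total counts and without either treated library). No call among the 4 YRF1 genes passed without thiolutin replicate 1, and YRF1-3 did not pass with DESeq2 (0.0545). The most unique of the 12 was YEL077C, at 16.2%, and 5 had no unique 50-base word, so these values cannot be assigned to single copies. In 14 of the 186 genes, several Y' genes among them, the listed span was shorter than the annotated gene.

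Duplicated blocks let copies of a gene be compared at different ends. The left end of chromosome IV and the right end of chromosome X hold COS7, SOR2, HXT15 and THI13 and their copies COS5, SOR1, HXT16 and THI11 at nearly the same distances, 0, 6881, 9855 and 14402 bp against 0, 6882, 9856 and 14403 bp. The COS pair fell at both ends, as given above. THI13 had 48.5 and 40.6 normalized counts untreated and 118 and 123 treated (1.43 ± 0.22, adjusted p = 0.00391), while THI11 had 125 and 88.4 against 106 and 104 (-0.02 ± 0.25, adjusted p = 0.94). The difference between the copies was not tested. HXT15, a hexose transporter relative, fell from 114 and 121 to 45.5 and 64.5 (-1.08 ± 0.25, adjusted p = 0.118 without thiolutin replicate 1), but it differed from HXT16 at 2 of 1704 bases and the latter had too few reads to be tested.

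The left ends of chromosomes VI and XIV share DDI3, SNO3, SNZ3 and THI5 with their copies DDI2, SNO2, SNZ2 and THI12. Within the block on chromosome VI the neighbouring genes did not move together. THI5 rose from 7.84 and 8.55 normalized counts to 85.4 and 64.5 (3.16 ± 0.34, adjusted p = 0.00119), whereas SNZ3, a vitamin B6 synthase subunit that lies next to it, had 203 and 138 against 116 and 113 (-0.58 ± 0.25, adjusted p = 0.0983). On chromosome XIV THI12 had 9.98 and 18.5 against 39.9 and 28.5 (1.24 ± 0.45, adjusted p = 0.0607) and SNZ2 had 216 and 143 against 137 and 113 (-0.53 ± 0.27, adjusted p = 0.142). Of the 8 genes for thiamine and vitamin B6 only THI5 and THI13 passed, and on the scale of total counts 4 others were lower. The next gene inward of THI5 is AAD6 (353 bp away, 3.83 on the log2 scale) and that of THI13 is AAD4 (350 bp, 4.36), which are among the genes left out by name; their part in the counts of THI5 and THI13 was not tested.

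The glutathione exchangers had different values, and those of GEX1 rest on few reads. GEX1, the outermost gene of chromosome III left, had 2 and 2 reads in untreated and 16 and 14 in treated cells, which is a ratio of 17.6 (95% exact interval 6.22 to 68.9, counting error only). It met the limit on low counts only in the treated libraries, so its test is not used here. GEX2, the outermost gene of chromosome XI right, fell from 450.4 and 351 normalized counts to 209 and 199.5 (-0.97 ± 0.18, adjusted p = 0.00684, and 0.0595 without thiolutin replicate 2). In treated cells GEX1, with 30.4 and 21.0 normalized counts, stayed below GEX2, whose gene has the same length. The next genes inward are related too: VBA3 on chromosome III had 2 and 3 reads against 12 and 11, a ratio of 10.8 (4.02 to 36.4) with the same limit, and VBA5 on chromosome XI rose by 0.85 on the log2 scale.

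The fluoride exporters differ at 8 of 1128 bases. FEX1 fell, while FEX2 on chromosome XVI left had 93.4 and 111 normalized counts untreated and 94.9 and 43.5 treated, so that its groups overlapped (-0.59 ± 0.39, adjusted p = 0.231). Next to them lie HSP33 and HSP32, members of the Hsp31 glyoxalase family. HSP33 had 9, 4, 3 and 8 reads and HSP32 had 12, 5, 5 and 7 in untreated replicates 1 and 2 and thiolutin replicates 1 and 2, too few to be tested. VTH1 and VTH2, copies of the vacuolar sorting receptor that differ at 1 of 4650 bases, had 42.8 and 62.7 against 32.3 and 58.5 and 69.1 and 71.3 against 64.5 and 72.0, and neither passed (-0.19 ± 0.39 and -0.04 ± 0.22). ERR3, the outermost gene of chromosome XIII right, had 11, 5, 1 and 4 reads and was not tested.

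Over all 186 genes, 72 pairs were at least 90% identical over equal length, and in 34 of them both copies were tested. In 16 of these the calls were the same, in 16 only 1 copy was called, and in 2 (GEX1 with GEX2, COS2 with COS4) the calls were opposite. The first of these rests on a gene that met the count limit in treated libraries only, and both COS calls were lost without thiolutin replicate 1.

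**Figure D4:**
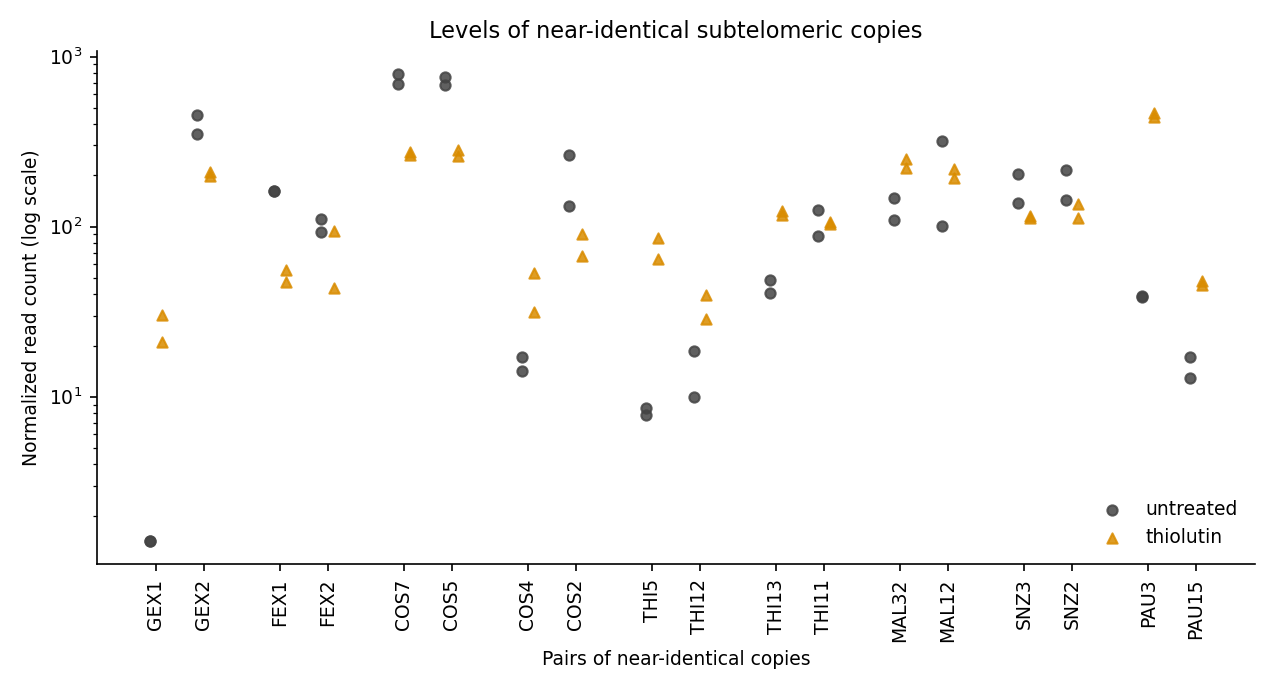
Normalized read counts (log axis) of 9 pairs of near-identical copies, with circles for the 2 untreated and triangles for the 2 thiolutin libraries. COS7 and COS5 lie at nearly the same levels, whereas GEX1 and GEX2 start far apart. GEX1 had few reads and met the limit on low counts only in the treated libraries, so its direction is not read here.

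The 3 regulators on the list were zinc-cluster or related transcription factors. RDS1, a zinc-cluster factor linked to cycloheximide resistance, rose from 487 and 594 normalized counts to 1180.4 and 1221 (1.15 ± 0.13, adjusted p = 0.0014). YPR196W, a relative of the maltose activators, rose from 325 and 306 to 674 and 681 (1.10 ± 0.11, adjusted p = 0.00106). YKL222C had 773 and 723 against 520.0 and 647 and did not pass (-0.36 ± 0.14, adjusted p = 0.0766). Among regulators not on this list, MAL33 rose, as given above, while ARR1 and MAL13 fell. Their changes were -0.67 (adjusted p = 0.00981, edgeR) and -0.53 (adjusted p = 0.027, edgeR). Both of these decreases lost their call without either treated library.

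By chromosome end, 24 of the 32 ends held at least 1 gene that rose and 23 at least 1 that fell, and the median was negative at 20 ends and positive at 12. At chromosome III right all 6 genes rose, from EMA35 (0.54 ± 0.12) to YCR102C, and the median was 1.03. This end was picked from the 32 small groups of genes after the values were seen. There were 4 calls without thiolutin replicate 1, 3 without thiolutin replicate 2 and 3 on the scale of total counts. YCR099C, EMA35 and YCR101C lie next to each other, and the first 2 overlap by 29 bp, so their counts are not independent. PAU3 at this end lies 894 bp from ADH7, a gene left out by name with a log2 fold change of 6.78. Chromosome VII left had 4 of 8 genes lower and none higher. ADH4, also left out by name, lies at that end, 12369 bp from its outermost listed gene, and had a log2 fold change of 4.24.

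**Figure D5:**
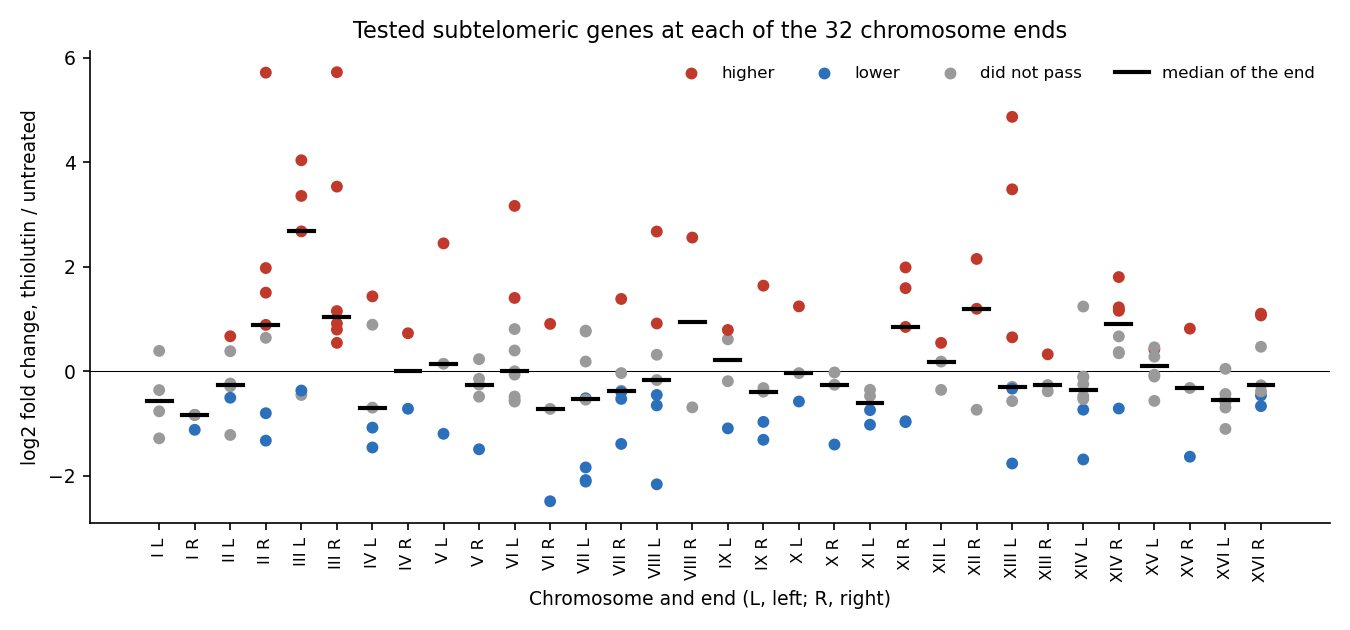
Log2 fold change (thiolutin over untreated) of every tested gene at each of the 32 chromosome ends, with black bars for the median of an end; red genes were called higher, blue lower and grey did not pass. All 6 genes of chromosome III right are red, and most other ends mix colours.

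Genes left out by name behaved differently from the rest. Of the 17 tested, 12 rose and none fell, with a median of 1.40, and with these added the counts were 57 higher and 39 lower of 176. They were named in the rule with results of these data known, so their count is not independent evidence of a direction.

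The machinery of silent chromatin and telomeres, a list of 48 genes across the genome, changed about as often as other genes. Of these 10 rose and 21 fell, 20.8% and 43.8%, beside 31.2% and 32.4% of all genes, and 64.6% changed in either direction, beside 63.6%. SIR2 fell from 877 and 963 normalized counts to 660.4 and 558 (-0.60 ± 0.13, adjusted p = 0.0116, and 0.13 without thiolutin replicate 2). SIR3 had 1249 and 1366 against 985 and 1179 and did not pass (-0.27 ± 0.12, adjusted p = 0.109), while SIR4 rose from 1263 and 1311 to 2848 and 2630.1 (1.09 ± 0.09, adjusted p = 0.000597). The groups did not overlap in any of the 3 genes. On the scale of total counts 5 of the list were higher and 34 lower, and without a treated library 7 and 5 or 6 and 5.

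The largest changes on this list were in telomerase and in histone assembly. TLC1, the RNA of telomerase, fell from 3727 and 3235 normalized counts to 1089 and 1085 (-1.68 ± 0.11, adjusted p = 0.000319). Most mature telomerase RNA lacks a poly(A) tail, so a library selected by that tail sees only part of it. MSI1 and RLF2, which belong to the chromatin assembly factor that deposits new histones, rose from 552 and 543 to 1869 and 1941 (1.80 ± 0.09, adjusted p = 0.000172) and from 880.2 and 957 to 2448 and 2404 (1.40 ± 0.09, adjusted p = 0.000313). CAC2, the third subunit of that factor, was lower (-0.37). UTH1, a gene better known from mitochondria and the cell wall, rose by 1.32 ± 0.16. The relation of these levels to those of the subtelomeric genes was not tested.

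Upstream sequences were searched for a pair of known elements, in the 250 bases before the start codon and on both strands, without regard to overlap with other motifs. The first, TTACTAA or its reverse complement, is bound by the oxidative stress factor Yap1. It stood before 6.77% of nuclear genes, 3.78% of the subtelomeric genes, 4 of the 30 that rose by at least 1 on the log2 scale (13.3%) and none of the 19 that fell as far. These 4 sites are shown 5′ to 3′ on the strand of the gene with the element in capitals. They lie at chrIII:305640-305669 (YCR102C), chrXIII:13345-13374 (ERO1), chrXIV:778948-778977 (AIF1) and chrIII:310861-310890 (RDS1), the first 3 on the minus strand and the last on the plus strand.
YCR102C: gatagacaataTTACTAAgtgttcctcaac
ERO1: ggctttgggcgTTAGTAAgaacaaaaagaa
AIF1: gtaatactggaTTAGTAAtcgttaaaaagc
RDS1: ttttgacatcaTTACTAAtaatgttactca

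The second, CCCCT or its reverse complement, is the stress response element of Msn2 and Msn4. It stood before 18.9% of nuclear genes, 18.4% of the subtelomeric genes, 2 of the 30 with the larger increases (6.67%) and 7 of the 19 with the larger decreases (36.8%). These 7 are not independent, since 3 of them, COS7, COS5 and COS2, share the same stretch of 30 bases 24 bases before the start codon, as does COS8. MSC1 has the element at 197 and 127 bases before its start codon. The stretches lie at chrIV:1761-1790 (COS7, plus strand), chrX:744011-744040 (COS5, minus strand) and chrXIII:16861-16890 (MSC1, minus strand). A match describes these letters only and says nothing of whether a factor was bound.
COS7: tcgaataaaaaaCCCCTcgaactgccatct
COS5: tcgaataaaaaaCCCCTcgaactgccatct
MSC1: gcctcaccttagAGGGGaagaataagggat

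The 27 genes that could not be tested had at most 16 reads in any library. Low levels also marked many that were tested: 97 of the 186 genes had a mean under 100 normalized counts. Of the 70 tested among them 15 rose and 9 fell (21.4% and 12.9%). Of the 89 above that level 30 rose and 30 fell (33.7% each). Of the 61 tested genes without a symbol 15 rose and 11 fell (24.6% and 18.0%). Among all tested genes 31.2% were higher and 32.4% lower. The limit on low counts was met only in the treated libraries by 4 genes (TYC1, GEX1, VBA3 and YHR214C-E, all called higher) and only in the untreated libraries by 4, of which YGL262W was called lower. Such a gene could pass only through the group in which it was high, so the count of low genes that passed is no sign of a direction.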

How the data were processed

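Poly(A) RNA of BY4741 yeast was sequenced from 2 untreated and 2 thiolutin libraries on the BGISEQ-500, and the authors deposited raw read counts per gene on genome build R64 without normalization. The sources used here name no aligner or counter and do not state the use of strand or the treatment of reads with several matches. The study's text gives 2 independent experiments while the record's design gives more replicates, and 2 libraries per condition were analysed; p-values measure the spread between these libraries. Another 4 per-sample columns, of values normalized by the authors, were not used, and neither were the columns of the authors' own DESeq2 comparison (log2 fold changes and p-values). Lines without a gene name (3) were dropped.

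Counts were filtered with filterByExpr, scaled by TMM and tested over 5937 genes by the quasi-likelihood test of edgeR 4.0.16 in R 4.3.3, with Benjamini-Hochberg adjustment and a threshold of 0.05. The standard error is the log2 fold change divided by the root of F. The script was tested on simulated data. Alternatives were DESeq2 1.42.0, its size factors, total counts, no filter, a replicate block, leaving out each library, a threshold of 0.01 and other member sets. Unique sequence is the share of 50-base words found once in R64, both strands counted. Gene names and coordinates came from the RefSeq annotation of R64, which is the build of the files.

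Genes named in the text are the 12 largest increases and 12 largest decreases among called genes without overlap and with a mean of at least 50, up to 3 members of each list by mean count, and SIR2, SIR3, SIR4 and the 4 called silencing genes with the largest changes; others were chosen after their values were seen. The members and lists were chosen with earlier results of these data known. Intervals cover counting error only. The lists of other cell types do not apply to a yeast culture. Reads of HIS3 were present in every library (962 to 2274 normalized counts). Which part of the gene they cover was not examined, so they say nothing of the his3 allele. The remaining loci of the genotype were not analysed here.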

Additional observations from a re-analysis of the deposited data

How the results depend on the processing

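Of the 84 called members, 82 kept theirs with DESeq2's size factors, 83 without the filter, 76 with the DESeq2 test, 79 with the replicate block, 65 on total counts, 47 without thiolutin replicate 1 and 45 without thiolutin replicate 2. All 84 did so without either untreated library, but then the close thiolutin pair alone gave the spread and calls over all genes rose to 4951 and 5001, so this is no sign of stability. Total counts gave 26 members higher and 86 lower with a median of -0.82, while all genes gave 965 higher and 3605 lower, and DESeq2 gave 43 and 33. Leaving out 1 library gave 45 to 123 members changed, 30 to 54 higher, 15 to 69 lower, a median of -0.25 to 0.0243 and 2050 to 5001 changed genes overall. At an adjusted p under 0.01 the members gave 52 calls, 33 higher and 19 lower. Within 10000 bp there were 50 calls, 25 higher and 25 lower of 105, and, chosen after seeing the data, the members at least 90% unique gave 42, 22 higher and 20 lower of 71. Libraries with the same number did not deviate together (correlation 0.02, 2 pairs only), and the block gave 84 member calls, 44 higher and 40 lower. When 1 library was left out, 23 of the 159 tested members turned sign in at least 1 fit, and none of these had been called. Among them were VTH1 (-0.71 to 0.15), VTH2 (-0.12 to 0.0369), MAL11 (-0.70 to 0.0545) and THI11 (-0.25 to 0.25), and THI11 also turned with DESeq2's size factors (0.00531) and test (0.00570). On total counts 18 turned, of which BDS1 (-0.17), EMA35 (-0.05), AYT1 (-0.04) and YMR317W (-0.26) had been called. The causes were not tested. Depth limits the 27 members that were not tested.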
